A study of Homo sapiens with 8 samples.

Results

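The genes of 8 surface proteins at which antibodies, radioligands or engineered T cells for prostate cancer have been aimed were followed here: FOLH1, STEAP1, STEAP2, STEAP4, PSCA, CD276, ERBB2 and ERBB3. The genes were chosen by name, and all 8 were found among the 26475 rows of the deposited table of FPKM (fragments per kilobase of gene, scaled to the size of the library). The cells were C4-2B, a subline of LNCaP that grows without testicular androgens, kept in serum-containing RPMI and treated for 7 days. The Combination group received both agents, the EPZ group received EPZ6438 (tazemetostat, which blocks the histone methyltransferase EZH2) at 1 uM, the ENZ group received ENZ (taken here as enzalutamide, an antiandrogen) at 10 uM, and the DMSO group received the vehicle. The labels give the doses of the single agents and none apart for the Combination. Each of the 4 groups had 2 libraries, all from 1 cell line. Nothing in the labels says that the 2 were grown apart, and the p-values cover no more than the spread between these libraries, which may be technical.

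Surface antigens serve as addresses: an agent that binds the protein outside the cell can bring a radionuclide, a toxin or a T cell to it. Androgen signalling controls many prostate genes of this kind, and FOLH1 is a textbook case of one that it holds down. EZH2 places a repressive methyl mark on histone H3 at silenced genes. RNA was measured here, not protein at the surface.

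FOLH1 encodes prostate-specific membrane antigen (PSMA), a zinc peptidase that removes glutamates from folates and the target of radioligands. STEAP1, STEAP2 and STEAP4 are membrane proteins of 1 family, of which STEAP2 and STEAP4 reduce iron and copper ions and STEAP1 lacks the part that binds the electron donor. PSCA is a small lipid-anchored protein of the Ly6 family. CD276 (B7-H3) is a relative of the immune checkpoint ligands. ERBB2 (HER2) and ERBB3 (HER3) are receptors of the epidermal growth factor receptor family, ERBB2 without a known ligand and ERBB3 a neuregulin receptor with little kinase activity. On hg38, per GENCODE release 29, FOLH1 (ENSG00000086205) spans 49146635 to 49208670 of chromosome 11 on the minus strand. CD276 (ENSG00000103855) spans 73683966 to 73714518 of chromosome 15, ERBB2 (ENSG00000141736) 39687914 to 39730426 of chromosome 17 and ERBB3 (ENSG00000065361) 56076799 to 56103505 of chromosome 12, each on the plus strand.

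The 3 STEAP genes lie on chromosome 7, STEAP4 (ENSG00000127954) from 88270892 to 88306891 on the minus strand, and STEAP1 (ENSG00000164647) from 90154375 to 90164829 and STEAP2 (ENSG00000157214) from 90167590 to 90238137 on the plus strand. STEAP1 and STEAP2 are 2761 bases apart. The 250 bases before a RefSeq start (GRCh38.p14) of each are shown because these relatives differed in their response. Capitals mark matches on either strand to AGAACA (an androgen response half-site), the full androgen response element (AGAACA and its inverted repeat 3 bases apart), TTCNNNGAA (a STAT-type site), GGGCGG (a GC box), CCAAT and TATAAA.
STEAP4, chr7:88306895-88307144, minus strand: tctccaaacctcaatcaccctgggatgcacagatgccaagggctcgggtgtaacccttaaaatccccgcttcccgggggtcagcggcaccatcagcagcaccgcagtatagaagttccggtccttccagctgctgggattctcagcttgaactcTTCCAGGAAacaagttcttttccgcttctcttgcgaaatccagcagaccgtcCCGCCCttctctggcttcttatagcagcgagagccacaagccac
STEAP1, chr7:90154219-90154468, plus strand: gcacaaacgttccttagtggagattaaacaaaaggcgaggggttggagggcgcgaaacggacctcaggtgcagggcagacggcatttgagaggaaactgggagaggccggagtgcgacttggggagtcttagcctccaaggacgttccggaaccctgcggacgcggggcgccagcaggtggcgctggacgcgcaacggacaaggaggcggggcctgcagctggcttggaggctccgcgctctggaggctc
STEAP2, chr7:90211490-90211739, plus strand: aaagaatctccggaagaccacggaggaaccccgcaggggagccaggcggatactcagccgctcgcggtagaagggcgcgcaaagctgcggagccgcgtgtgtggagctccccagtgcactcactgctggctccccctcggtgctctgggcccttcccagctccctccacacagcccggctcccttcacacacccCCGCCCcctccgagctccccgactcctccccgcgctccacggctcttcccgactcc
The STEAP4 window held TTCNNNGAA 96 bases before the start, letters found in 6.57% of 35116 such windows, and a GC box at 44 bases, found in 42.6%. The STEAP2 window, which lies inside the longer GENCODE gene, held a GC box 56 bases before the start. The window of another STEAP2 start, from 90213570 to 90213819 and not shown, held 2 CCAAT matches and 1 TATAAA match. CCAAT was found in 32.0% of all windows and TATAAA in 10.7%. Bases G and C made up 32.8% of this second STEAP2 window. The STEAP1 window held none of the 6 motifs. AGAACA, found in 12.4% of all windows, was in none of the 3 shown. Bases G and C made up 55.6% of the STEAP4 window, 64.4% of that of STEAP1 and 69.6% of the shown window of STEAP2. The median over all windows was 58%. A match is a string of letters, not a bound site.

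The libraries held an estimated 15500000 to 24500000 fragments, and replicates correlated at r = 0.992 to 0.996 across the 11874 genes whose mean reached 1 FPKM, which are not independent points. All 8 luminal prostate markers, such as KRT8, were above that mean. The 3 basal markers summed to at most 0.184 FPKM in a library, the 3 neuroendocrine markers to at most 1.40 FPKM and the 3 endothelial markers to at most 0.857 FPKM. The fibroblast sum came from COL1A1, at 10.5 FPKM in Combination and 2.33 FPKM in DMSO, with COL1A2 at 0, and the leukocyte sum from CD68, at 11.5 FPKM in Combination and 7.22 FPKM in DMSO, with CD3E at 0. What part COL1A1 and CD68 have in the results was not tested. Changes below come from limma on log2(FPKM + 1) values, with a standard error (SE) and a Benjamini-Hochberg adjusted p over the 11874 genes, and a call is an adjusted p under 0.05. Of all tested genes 80.8% with Combination, 55.8% with EPZ and 56.7% with ENZ were called against DMSO, and counts of called genes are to be read beside these shares. This scale understates the change of low genes, so folds are given as ratios of mean FPKM. The median of all tested genes was -0.15 for Combination against DMSO as deposited and 0.0024 after median-of-ratios scaling.

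**Figure D1:**
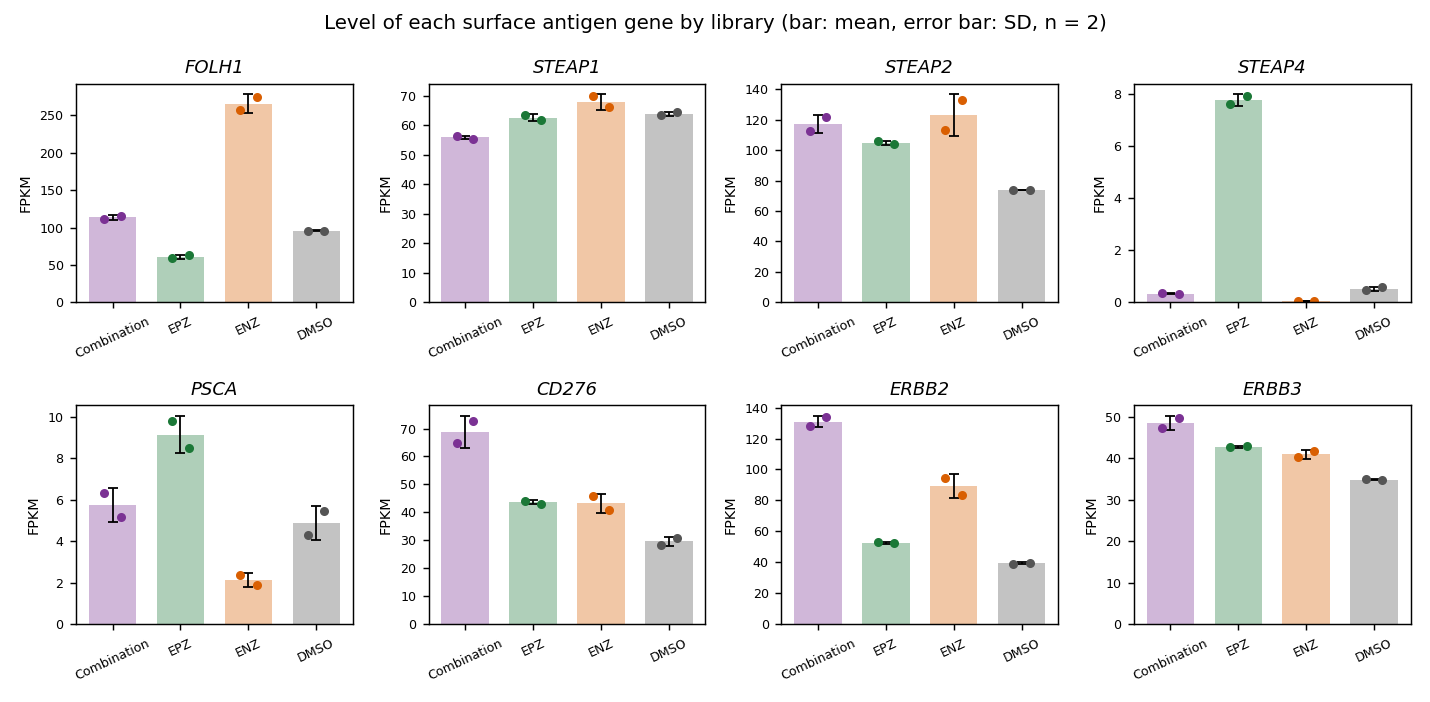
FPKM (vertical axis, from 0) of the 8 surface antigen genes in Combination, EPZ, ENZ and DMSO. Points are libraries, bars are means and error bars are SD (n = 2). FOLH1 is highest in ENZ, STEAP4 and PSCA are highest in EPZ, and CD276, ERBB2 and ERBB3 are highest in Combination.

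FOLH1 was higher with ENZ and lower with EPZ, and with both agents lay just above the vehicle. It had 111 and 116 FPKM in Combination, 58.9 and 62.9 FPKM in EPZ, 257 and 275 FPKM in ENZ, and 95 and 95.9 FPKM in DMSO. No groups overlapped. In bulk RNA fewer cells of a kind and less RNA per cell cannot be told apart. The values rest on many fragments: 5833 and 5188 in Combination, 3926 and 3835 in EPZ, 13514 and 16360 in ENZ, and 4004 and 5319 in DMSO. FOLH1 rose 2.78-fold with ENZ (log2 change 1.47, SE 0.058, limma adjusted p = 9.57e-08) and fell with EPZ to a level 1.57-fold lower (-0.64, SE 0.058, limma adjusted p = 1.84e-05). Set against ENZ, the Combination was 2.34-fold lower (-1.22, SE 0.058, limma adjusted p = 7.38e-08). It was 1.86-fold above EPZ (0.89, SE 0.058, limma adjusted p = 5.36e-07) and 1.19-fold above DMSO (0.25, SE 0.058, limma adjusted p = 0.00288), the last log2 change being 0.42 after median-of-ratios scaling. FOLH1B, a near-identical copy with which reads can be shared, was assigned 0 to 7 fragments per library, so how the counting split the pair is uncertain.

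In the PSMA and transferrin receptor family, 4 of 7 genes were tested, FOLH1 included. NAALADL2, a relative of FOLH1, had 17.9 ± 0.856 FPKM in Combination, 7.13 ± 0.233 FPKM in EPZ, 8.67 ± 0.718 FPKM in ENZ and 3.29 ± 0.0920 FPKM in DMSO (SD, n = 2 each), higher with each treatment. TFRC, the transferrin receptor, had 34.2 ± 0.380 FPKM in Combination, 122 ± 2.03 FPKM in EPZ, 118 ± 5.15 FPKM in ENZ and 159.5 ± 7.79 FPKM in DMSO, lower with each. TFR2, the second transferrin receptor, fell with Combination (-0.48, SE 0.14) and EPZ (-0.42, SE 0.14) and did not pass with ENZ (0.21, SE 0.14). NAALAD2, NAALADL1 and FOLH1B were below 1 FPKM in all libraries and were not tested.

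PSMA acts on folates outside the cell, so genes of folate uptake and storage were read beside it. Of the 6 tested among 8, 1 rose and 5 fell with Combination, 1 rose and 4 fell with EPZ, and 2 rose and 3 fell with ENZ, where the shares called over all tested genes were 80.8% with Combination, 55.8% with EPZ and 56.7% with ENZ. Their median log2 changes were -0.91 for Combination, -0.29 for EPZ and -0.052 for ENZ, beside -0.15, -0.046 and 0.0049 for all tested genes. SLC19A1, the reduced folate carrier, had 10.0 ± 0.368 FPKM in Combination, 29.8 ± 0.792 FPKM in EPZ, 28.2 ± 2.19 FPKM in ENZ and 36.0 ± 0.989 FPKM in DMSO, and fell with each treatment. GGH, which cuts glutamates from folates inside the cell, had 14.3 ± 0.380 FPKM in Combination, 26.1 ± 1.01 FPKM in EPZ, 45.8 ± 0.616 FPKM in ENZ and 34.1 ± 5.49 FPKM in DMSO, and fell with Combination by 1.19 (SE 0.092). After quantile normalization 1 rose and 4 fell with Combination, 1 rose and 1 fell with EPZ, and 1 rose and 2 fell with ENZ.

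STEAP1 was the steadiest of the 8 genes, spanning 0.33 on the log2 scale over all libraries. It had 56.3 and 55.4 FPKM in Combination, 63.5 and 61.7 FPKM in EPZ, 69.8 and 66.0 FPKM in ENZ, and 63.4 and 64.4 FPKM in DMSO. Combination libraries were the lowest, and EPZ libraries overlapped those of DMSO. Neither single agent gave a call, at -0.030 for EPZ (95% interval -0.15 to 0.088) and 0.086 for ENZ (95% interval -0.032 to 0.20). After quantile normalization both passed higher, at 0.14 for EPZ (limma adjusted p = 0.0474) and 0.32 for ENZ (limma adjusted p = 9.11e-04). Combination against DMSO passed (-0.19, SE 0.053, limma adjusted p = 0.00706) at a value near the median of all genes. It was -0.016 after median-of-ratios scaling (limma adjusted p = 0.788), 0.44 after quantile normalization (limma adjusted p = 3.10e-05) and -0.18 without DMSO replicate 2 (limma adjusted p = 0.0540).

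STEAP2, the neighbour of STEAP1, rose with each treatment. It had 113 and 122 FPKM in Combination, 106 and 104 FPKM in EPZ, 113 and 133 FPKM in ENZ, and 74.0 and 73.7 FPKM in DMSO. All 6 treated libraries were above both DMSO libraries, and Combination overlapped ENZ. The folds over DMSO were 1.59 for Combination (0.66, SE 0.075, limma adjusted p = 1.79e-05), 1.42 for EPZ (0.50, SE 0.075, limma adjusted p = 3.96e-04) and 1.67 for ENZ (0.72, SE 0.075, limma adjusted p = 4.42e-05). Combination passed against neither single agent: it differed from ENZ by -0.066 (95% interval -0.23 to 0.10) and from EPZ by 0.16 (95% interval -0.010 to 0.32). The difference from EPZ passed after median-of-ratios scaling (0.28), after quantile normalization (0.64), with the compared groups alone and without ENZ replicate 1 or 2, and that from ENZ passed lower without ENZ replicate 1 (-0.18) and higher after quantile normalization (0.31).

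STEAP4 was below 1 FPKM in every library outside the EPZ group. It had 0.340 and 0.321 FPKM in Combination, 7.61 and 7.93 FPKM in EPZ, 0.0454 and 0.0401 FPKM in ENZ, and 0.468 and 0.582 FPKM in DMSO. Its fragments were 30 and 24 in Combination, 849 and 810 in EPZ, 4 and 4 in ENZ, and 33 and 54 in DMSO, so the ENZ level rests on 8 fragments. No groups overlapped. Since STEAP4 reached the minimum mean of 1 FPKM only through the EPZ libraries, it had to differ between groups. In EPZ it was 14.8-fold above DMSO (2.52, SE 0.093, limma adjusted p = 1.17e-07), and in ENZ 12.3-fold below DMSO, which the scale compresses to a log2 change of -0.55 (SE 0.093, limma adjusted p = 8.69e-04). With a pseudocount of 0.1 these log2 changes were 3.66 and -2.12. With both agents STEAP4 was 23.5-fold below EPZ (-2.72, SE 0.093, limma adjusted p = 1.01e-08) and 7.73-fold above ENZ (0.35, SE 0.093, limma adjusted p = 0.00709), and the call against ENZ ended after quantile normalization (0.19, limma adjusted p = 0.0949). Combination against DMSO did not pass (-0.20, 95% interval -0.41 to 0.014), but did after quantile normalization (-0.54). An antisense gene, AC003991.1, shares 782 exon bases with STEAP4, and no source used here says whether the counting used strand.

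STEAP3, the ferrireductase of the transferrin cycle, had 8.28 ± 0.665 FPKM in Combination, 14.2 ± 0.0888 FPKM in EPZ, 17.4 ± 1.40 FPKM in ENZ and 15.1 ± 0.584 FPKM in DMSO. It fell with Combination by 0.79 (SE 0.076) and did not pass with EPZ (-0.077) or ENZ (0.19). STEAP1B, a copy of STEAP1, was at most 0.383 FPKM. Over the 4 tested STEAP genes 1 rose and 2 fell with Combination, 2 rose and 0 fell with EPZ, and 1 rose and 1 fell with ENZ, beside 80.8% with Combination, 55.8% with EPZ and 56.7% with ENZ called over all tested genes. After quantile normalization 2 rose and 2 fell with Combination, 3 rose and 0 fell with EPZ, and 3 rose and 1 fell with ENZ. Both EPZ counts include STEAP4, whose call the minimum mean favoured. SRI, 43899 bases from STEAP4, had 7.93 ± 0.538 FPKM in Combination, 9.99 ± 0.755 FPKM in EPZ, 9.04 ± 0.674 FPKM in ENZ and 9.57 ± 0.346 FPKM in DMSO and did not pass with EPZ (0.055, SE 0.081). CFAP69, 7037 bases beyond STEAP2, had 2.23 ± 0.0270 FPKM in Combination, 1.31 ± 0.0339 FPKM in EPZ, 1.32 ± 0.291 FPKM in ENZ and 0.666 ± 0.166 FPKM in DMSO, higher with each treatment.

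PSCA, like STEAP4, was higher with EPZ and lower with ENZ. It had 6.34 and 5.19 FPKM in Combination, 9.80 and 8.51 FPKM in EPZ, 2.38 and 1.89 FPKM in ENZ, and 4.29 and 5.45 FPKM in DMSO. EPZ libraries were above and ENZ libraries below all others, and Combination overlapped DMSO. Its fragments were 157 and 109 in Combination, 307 and 244 in EPZ, 59 and 53 in ENZ, and 85 and 142 in DMSO. PSCA rose 1.88-fold with EPZ (0.79, SE 0.13, limma adjusted p = 6.22e-04) and was 2.28-fold lower with ENZ (-0.90, SE 0.13, limma adjusted p = 2.89e-04). Combination against DMSO was 0.21 (95% interval -0.080 to 0.49, limma adjusted p = 0.160). It passed after median-of-ratios scaling (0.36, limma adjusted p = 0.0312) and without DMSO replicate 2 (0.35, limma adjusted p = 0.0454). PSCA (ENSG00000167653) spans 142670308 to 142682724 of chromosome 8 on the plus strand. It shares 368 of its 1763 exon bases with JRK on the other strand. JRK had 6.36 ± 0.277 FPKM in Combination, 4.77 ± 0.101 FPKM in EPZ, 5.56 ± 0.310 FPKM in ENZ and 5.42 ± 0.185 FPKM in DMSO. Whether the counting used strand is not stated, and what part JRK reads have in the PSCA values was not tested.

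Of 13 Ly6 family genes 7 were tested, PSCA among them. In this family 4 rose and 1 fell with Combination, 2 rose and 0 fell with EPZ, and 4 rose and 2 fell with ENZ, beside 80.8% with Combination, 55.8% with EPZ and 56.7% with ENZ called over all tested genes. With Combination 6 rose and 1 fell after median-of-ratios scaling, and 3 rose and 1 fell after quantile normalization. CD59, an inhibitor of complement, had 21.7 ± 1.34 FPKM in Combination, 13.2 ± 0.151 FPKM in EPZ, 12.4 ± 0.0339 FPKM in ENZ and 7.06 ± 0.197 FPKM in DMSO, higher with each treatment. LYPD6B had 7.32 ± 0.0901 FPKM in Combination, 0.738 ± 0.319 FPKM in EPZ, 1.80 ± 0.0249 FPKM in ENZ and 0.411 ± 0.349 FPKM in DMSO, higher with Combination and ENZ. It reached the minimum mean only through the Combination libraries, which favours its call there. LY6E fell with Combination by 1.00 (SE 0.11) and with ENZ by 0.63 (SE 0.11).

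CD276 rose with each agent and rose further with both. It had 64.7 and 72.9 FPKM in Combination, 44.1 and 43.1 FPKM in EPZ, 45.7 and 40.7 FPKM in ENZ, and 28.4 and 30.8 FPKM in DMSO. Combination libraries were above all others, DMSO libraries were below, and the single agents overlapped. Against DMSO it was 2.32-fold higher with Combination (1.19, SE 0.078, limma adjusted p = 2.98e-07), 1.47-fold with EPZ (0.54, SE 0.078, limma adjusted p = 3.11e-04) and 1.46-fold with ENZ (0.53, SE 0.078, limma adjusted p = 3.70e-04). EPZ differed from ENZ by 0.016 (95% interval -0.16 to 0.19). Combination was 1.59-fold above ENZ (0.66, SE 0.078, limma adjusted p = 3.98e-05) and 1.58-fold above EPZ (0.64, SE 0.078, limma adjusted p = 4.18e-05).

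CD276 had the highest level of the B7 ligands with values. The other one tested was NCR3LG1 (B7-H6, a ligand of the natural killer cell receptor NKp30), with 3.25 ± 0.0900 FPKM in Combination, 3.71 ± 0.330 FPKM in EPZ, 7.63 ± 0.0440 FPKM in ENZ and 5.75 ± 0.0905 FPKM in DMSO. NCR3LG1 fell with Combination (-0.67, SE 0.074) and EPZ (-0.52, SE 0.074) and rose with ENZ (0.35, SE 0.074). CD274 (PD-L1) was at most 0.155 FPKM in any library, ICOSLG at most 0.163 FPKM, and PDCD1LG2, CD80, CD86 and HHLA2 lower still. VTCN1 (B7-H4) had 1.21 and 0.975 FPKM in Combination, 0.0278 and 0.0456 FPKM in EPZ and 0.0176 and 0.0623 FPKM in ENZ, and was listed at 0 in both DMSO libraries. It was under the minimum mean and was not tested. NPTN, 49832 bases from CD276, had 49.2 ± 3.16 FPKM in Combination, 29 ± 0.952 FPKM in EPZ, 29.9 ± 0.647 FPKM in ENZ and 20.2 ± 1.31 FPKM in DMSO, higher with each treatment.

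ERBB2 had the largest rise of the 8 genes with Combination. It had 128 and 134 FPKM in Combination, 52.8 and 52.1 FPKM in EPZ, 94.6 and 83.6 FPKM in ENZ, and 39.0 and 39.8 FPKM in DMSO. No groups overlapped, with Combination highest and DMSO lowest. Over DMSO it was 3.32-fold higher with Combination (1.71, SE 0.064, limma adjusted p = 6.79e-09), 1.33-fold with EPZ (0.41, SE 0.064, limma adjusted p = 5.94e-04) and 2.26-fold with ENZ (1.16, SE 0.064, limma adjusted p = 9.15e-07). Combination was 1.47-fold above ENZ (0.55, SE 0.064) and 2.5-fold above EPZ (1.30, SE 0.064). ERBB2 shares 765 exon bases with PGAP3 and MIEN1 on the other strand. PGAP3 had 18.0 ± 0.155 FPKM in Combination, 11.5 ± 0.0883 FPKM in EPZ, 12 ± 1.58 FPKM in ENZ and 8.38 ± 0.575 FPKM in DMSO, higher with each treatment. MIEN1 had 66.0 ± 1.10 FPKM in Combination, 99.7 ± 1.10 FPKM in EPZ, 64.9 ± 1.26 FPKM in ENZ and 97.3 ± 3.21 FPKM in DMSO, and fell with Combination (-0.55, SE 0.051) and ENZ (-0.58, SE 0.051).

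ERBB3 rose with each treatment by smaller amounts. It had 47.3 and 49.8 FPKM in Combination, 42.6 and 42.9 FPKM in EPZ, 40.3 and 41.7 FPKM in ENZ, and 35 and 34.7 FPKM in DMSO. All treated libraries were above the DMSO libraries. The log2 changes were 0.47 with Combination, 0.29 with EPZ and 0.23 with ENZ (SE 0.053 each, limma adjusted p = 1.94e-05, 0.00145 and 0.00519). EPZ differed from ENZ by 0.061 (95% interval -0.059 to 0.18). ERBB3 shares 31 exon bases with AC034102.2. PA2G4, 814 bases from ERBB3, had 29.3 ± 1.64 FPKM in Combination, 80.8 ± 2.36 FPKM in EPZ, 83.0 ± 1.59 FPKM in ENZ and 126 ± 1.28 FPKM in DMSO, lower with each treatment.

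EGFR, the first receptor of the family to be described, had 16.2 ± 0.286 FPKM in Combination, 32.1 ± 1.76 FPKM in EPZ, 17.7 ± 0.195 FPKM in ENZ and 27.3 ± 0.229 FPKM in DMSO. It fell with Combination (-0.72, SE 0.059) and ENZ (-0.60, SE 0.059) and rose with EPZ (0.23, SE 0.059). ERBB4 was listed at 0 in all libraries. Of 11 ERBB ligand genes 2 were tested. TGFA, a ligand of EGFR, had 3.64 ± 0.0383 FPKM in Combination, 1.71 ± 0.317 FPKM in EPZ, 1.91 ± 0.0867 FPKM in ENZ and 0.407 ± 0.0204 FPKM in DMSO, higher with each treatment. HBEGF, another EGFR ligand, rose with Combination (0.61, SE 0.088) and ENZ (0.48, SE 0.088) and did not pass with EPZ (0.13, SE 0.088). The ENZ call of HBEGF ended after quantile normalization (0.24, limma adjusted p = 0.0528).

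Among 15 tested ERBB adaptors, effectors and negative regulators 5 rose and 7 fell with Combination, 5 rose and 6 fell with EPZ, and 4 rose and 5 fell with ENZ. The shares called over all tested genes were 80.8% with Combination, 55.8% with EPZ and 56.7% with ENZ. After quantile normalization 8 rose and 6 fell with Combination and 2 rose and 2 fell with ENZ. ADAM10, a protease that sheds surface proteins, had 76.7 ± 1.84 FPKM in Combination, 45.8 ± 0.00104 FPKM in EPZ, 57.8 ± 4.34 FPKM in ENZ and 29.3 ± 0.354 FPKM in DMSO, higher with each treatment. GRB7, an adaptor whose gene lies close to ERBB2, had 10.3 ± 0.354 FPKM in Combination, 4.52 ± 0.340 FPKM in EPZ, 6 ± 0.560 FPKM in ENZ and 3.81 ± 0.160 FPKM in DMSO, higher with Combination and ENZ. CBLB, a ubiquitin ligase that acts on receptor kinases, rose with Combination by 1.54 (SE 0.085). LRIG1, which lowers ERBB receptor protein, had 17.4 ± 0.214 FPKM in Combination, 51.6 ± 0.559 FPKM in EPZ, 14.5 ± 1.02 FPKM in ENZ and 18.2 ± 0.135 FPKM in DMSO, higher with EPZ and lower with ENZ. HSP90AA1 and HSP90AB1, chaperones on which ERBB2 protein depends, fell with Combination by 1.21 (SE 0.064) and 1.23 (SE 0.048). With ENZ they fell by 0.33 and 0.30, which after quantile normalization were 0.023 and 0.089 (limma adjusted p = 0.828 and 0.173).

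**Figure D2:**
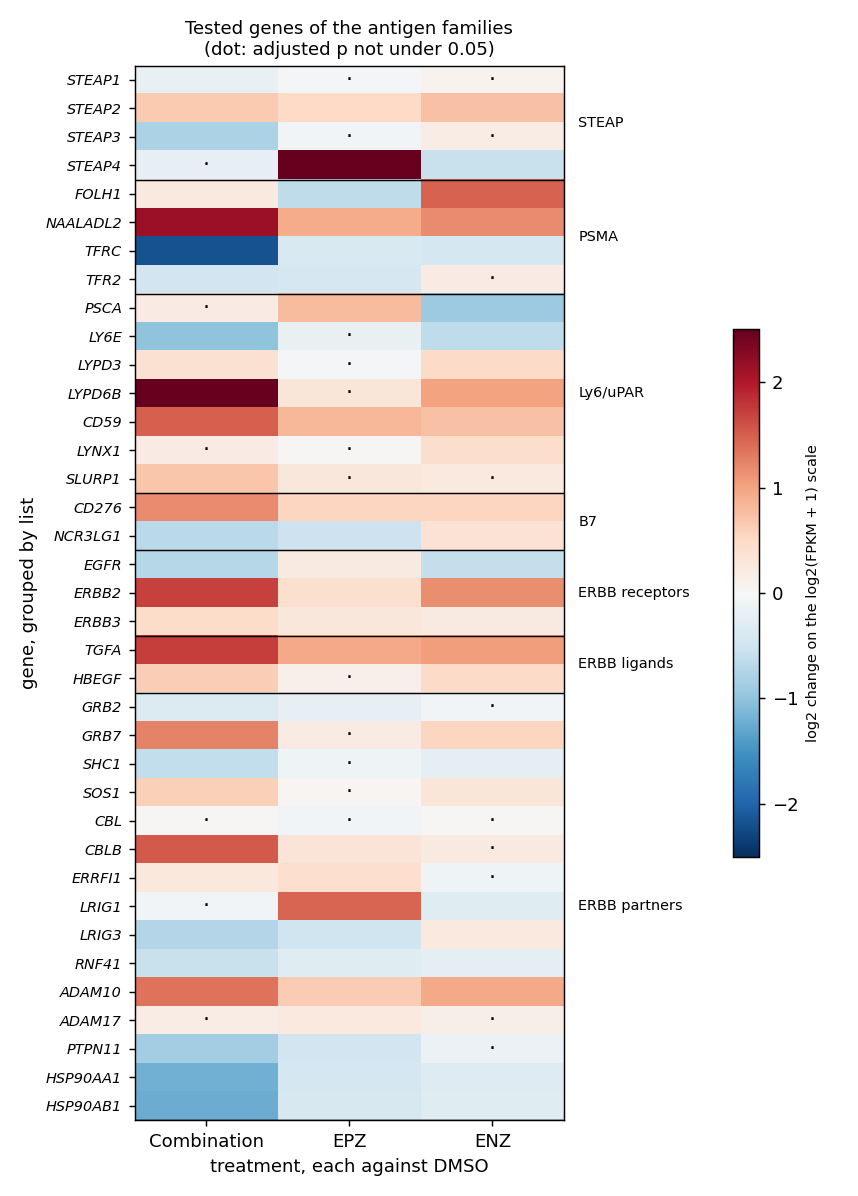
Log2 change on the log2(FPKM + 1) scale (colour, saturated at 2.5 in either direction) of 37 tested genes of the antigen families (rows) in Combination, EPZ and ENZ, each against DMSO (columns). Dots mark changes with an adjusted p not under 0.05. STEAP4 and LRIG1 are higher in the EPZ column, and ERBB2 and NAALADL2 are higher in the Combination column.

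Across the 8 genes, 5 rose and 1 fell with Combination, 6 rose and 1 fell with EPZ, and 5 rose and 2 fell with ENZ. The 6 with EPZ include STEAP4, which reached the minimum mean only through the EPZ libraries, so its call was favoured by that filter. With a minimum mean of 5 FPKM, where STEAP4 was not tested, 5 rose and 1 fell with EPZ. Of all tested genes 80.8% passed with Combination (33.3% higher, 47.4% lower), 55.8% with EPZ (23.4% higher, 32.4% lower) and 56.7% with ENZ (27.9% higher, 28.8% lower), so the calls among the 8 stand beside high backgrounds. The median log2 change of the 8, STEAP4 included, was 0.36 with Combination, 0.45 with EPZ and 0.38 with ENZ. STEAP2, CD276, ERBB2 and ERBB3 rose with all 3 treatments, which share the DMSO libraries. The share of all tested genes that rose with all 3 was not counted. FOLH1, PSCA and STEAP4 moved in opposite directions with the single agents.

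EPZ against ENZ compares the single agents directly, and 50.6% of all genes passed (20% higher, 30.6% lower). FOLH1 was 4.37-fold lower in EPZ (-2.11, SE 0.058) and ERBB2 1.70-fold lower (-0.75, SE 0.064). STEAP4 was 182-fold higher in EPZ (3.07, SE 0.093), a ratio that rests on the 8 ENZ fragments, and PSCA 4.28-fold higher (1.69, SE 0.13). Since STEAP4 reached the minimum mean only through EPZ, its difference here was favoured by that filter. STEAP2 was lower in EPZ (-0.22, SE 0.075, limma adjusted p = 0.0314), a call that ended after median-of-ratios scaling (-0.15), with no minimum mean, with the compared groups alone, and without ENZ replicate 2 (-0.11), EPZ replicate 1 (-0.24) or EPZ replicate 2 (-0.21). STEAP1, CD276 and ERBB3 did not pass, and STEAP1, at -0.12, passed without ENZ replicate 2 (-0.15).

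**Figure D3:**
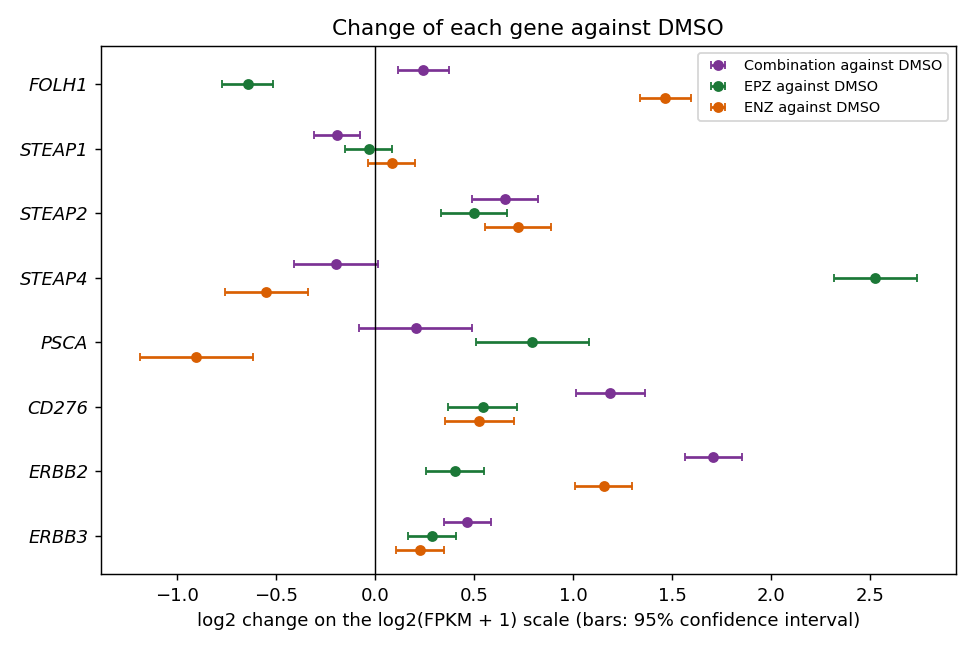
Log2 change on the log2(FPKM + 1) scale (horizontal axis) of each gene (vertical axis) in Combination, EPZ and ENZ, each against DMSO, with 95% confidence intervals from limma. FOLH1, STEAP4 and PSCA have EPZ and ENZ points on opposite sides of 0, and the Combination points of CD276 and ERBB2 lie beyond those of both single agents.

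Combination was also compared with each single agent, though the labels do not say that its doses were the same. Against ENZ, 5 of the 8 genes were higher and 2 lower, with 70.8% of all genes past the threshold (25.3% higher, 45.5% lower). Against EPZ, 4 were higher and 3 lower, with 72.8% past it (29.2% higher, 43.7% lower). The genes named next are given as Combination against the single agent. PSCA was 2.69-fold above ENZ (1.11, SE 0.13, limma adjusted p = 3.31e-05) and 1.59-fold below EPZ (-0.59, SE 0.13, limma adjusted p = 0.00209), the reverse of FOLH1. ERBB3 was above ENZ (0.24, SE 0.053, limma adjusted p = 0.00270) and above EPZ (0.18, SE 0.053, limma adjusted p = 0.0128). Its call against EPZ ended without Combination replicate 2 (0.14), EPZ replicate 1 (0.17) or EPZ replicate 2 (0.18). STEAP1 was below ENZ (-0.28, SE 0.053, limma adjusted p = 9.78e-04) and below EPZ (-0.16, SE 0.053, limma adjusted p = 0.0191). After median-of-ratios scaling neither STEAP1 difference passed (-0.088 and -0.040), and the one from EPZ ended without Combination replicate 1 or 2 or EPZ replicate 1 (-0.17, -0.15 and -0.14).

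The interaction asks whether the joint change equals the sum of the single changes on the log2 scale. It takes the doses in Combination to be those of the single agents, which the labels do not state. It passed for 4 of the 8 genes, each negative, while 39.6% of all tested genes passed (9.99% higher, 29.6% lower) and the median of all was -0.12. For STEAP4 the single changes summed to 1.98 and the joint change was -0.20, an interaction of -2.17 (SE 0.13, limma adjusted p = 4.05e-06). Taken from ratios of mean FPKM, with no pseudocount, the departure was -0.94 and rests on the 8 ENZ fragments. STEAP4 also reached the minimum mean only through the EPZ libraries, which favours its call here. For FOLH1 the sum was 0.82 and the joint change 0.25, an interaction of -0.58 (SE 0.082, limma adjusted p = 4.93e-04). For STEAP2 the sum was 1.22 and the joint change 0.66, an interaction of -0.57 (SE 0.11, limma adjusted p = 0.00242). STEAP1 passed at -0.25 (SE 0.074, limma adjusted p = 0.0254), but not after median-of-ratios scaling (-0.11), nor after quantile normalization (-0.019), nor without any 1 of the Combination, EPZ or DMSO libraries (-0.27 to -0.23).

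For CD276 and ERBB2 the sums were 1.07 and 1.56, beside joint changes of 1.19 and 1.71. The interaction of CD276 was 0.12 (95% interval -0.13 to 0.36), and it passed after quantile normalization (0.46). That of ERBB2 was 0.15 (95% interval -0.057 to 0.35), and it passed after median-of-ratios scaling (0.28) and quantile normalization (0.44), and without ENZ replicate 1 (0.24, limma adjusted p = 0.0219). ERBB3 was at -0.050 (95% interval -0.22 to 0.12) and, after quantile normalization, at 0.24 and past the threshold. PSCA was at 0.31 (95% interval -0.092 to 0.72).

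**Figure D4:**
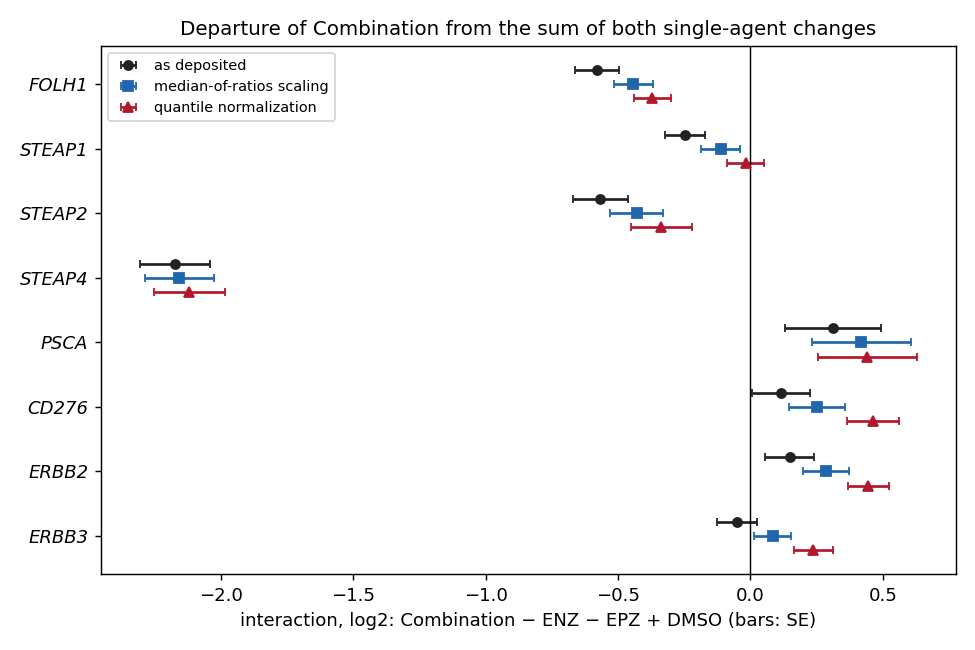
Interaction on the log2 scale (horizontal axis; Combination minus ENZ minus EPZ plus DMSO) of each gene (vertical axis) with SE bars, from FPKM as deposited, scaled by median of ratios, or quantile normalized. STEAP4, FOLH1 and STEAP2 stay below 0 under all 3, and ERBB3 changes side.

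FPKM are per length, so an order of genes depends on the gene lengths used in the counting, which are not stated. The lengths implied by the recovered fragments were shorter than the GENCODE exons for all 8 genes, and not in equal proportion. The implied lengths were 5486 bases for ERBB2, whose exons cover 10321, and 2726 for FOLH1, whose exons cover 3824. They rest on the estimated depth, whose scale was itself set with GENCODE exon lengths and is imprecise. With other lengths the order within a group could change, ERBB2 in Combination included. By FPKM as deposited, the order of the 8 genes differed between groups. In Combination ERBB2 led at 131 FPKM, followed by STEAP2 at 117 and FOLH1 at 113, whose libraries overlapped, then CD276 at 68.8, STEAP1 at 55.9, ERBB3 at 48.6, PSCA at 5.76 and STEAP4 at 0.331. In EPZ STEAP2 led at 105 FPKM, followed by STEAP1 at 62.6 and FOLH1 at 60.9, which overlapped, then ERBB2 at 52.5, CD276 at 43.6, ERBB3 at 42.8, PSCA at 9.15 and STEAP4 at 7.77. In ENZ FOLH1 led at 266 FPKM, followed by STEAP2 at 123, ERBB2 at 89.1, STEAP1 at 67.9, CD276 at 43.2 and ERBB3 at 41.0, of which the last 2 overlapped, then PSCA at 2.14 and STEAP4 at 0.0428. In DMSO the order was FOLH1 at 95.5, STEAP2 at 73.9, STEAP1 at 63.9, ERBB2 at 39.4, ERBB3 at 34.8, CD276 at 29.6, PSCA at 4.87 and STEAP4 at 0.525 FPKM, and no neighbours overlapped. Among all tested genes ERBB2 stood at percentile 98.7 in Combination and 84.8 in DMSO, and FOLH1 at percentile 99.3 in ENZ and 95 in DMSO. A higher percentile need not be a higher level. STEAP1 stood at percentile 94.5 in Combination and 91.3 in DMSO, with fewer FPKM in Combination.

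Genes with a pattern most like each member that spans at least 1 on the log2 scale were ranked by Pearson's r of log2(FPKM + 1) over the 8 libraries, among genes with at least 0.5 of its span. The libraries fall into 4 groups, so r only describes likeness. For FOLH1 these were RAP2B, a small GTPase (r = 0.996), PREX1, a Rac exchange factor (r = 0.993), and SVIP (r = 0.991). RAP2B had 11.2 ± 0.501 FPKM in Combination, 5.42 ± 0.0722 FPKM in EPZ, 38.1 ± 1.06 FPKM in ENZ and 9.84 ± 0.655 FPKM in DMSO. For STEAP4 these were LRIG1 (r = 0.998), PLOD2, a collagen lysyl hydroxylase (r = 0.997), and PHGR1 (r = 0.994). PLOD2 and PHGR1, like STEAP4, reached the minimum mean only through the EPZ libraries, which favours their likeness to it. For PSCA these were PRKCH, a protein kinase C (r = 0.977), MICAL1 (r = 0.977) and SAT1, a polyamine acetyltransferase (r = 0.976). For CD276 these were SLC25A45 (r = 0.997), CABP4 (r = 0.996) and NPC2, a lysosomal cholesterol carrier (r = 0.995). CABP4 reached the minimum mean only through the Combination libraries. For ERBB2 they included FKBP9 (r = 1.000) and AGA, a lysosomal enzyme (r = 0.997). An r of at least 0.95 was reached by 30 genes for FOLH1, 27 for STEAP4, 20 for PSCA, 558 for CD276 and 465 for ERBB2.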

How the data were processed

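RNA of C4-2B cells was sequenced in 8 libraries. The authors deposited 1 table of FPKM, aligned with STAR to hg38 per the submitters' processing notes, and for the counting tool, annotation and strand nothing is stated in those notes or the labels. Of 26475 rows, 26443 had values and 28 symbols were dates. Relative depth was recovered from the steps between low FPKM values (whole ratios within 0.04%). The fragments behind a value were the smallest whole numbers that fitted FPKM times relative depth over the libraries. The absolute scale was the median over 251 low genes with 1 transcript, from their GENCODE exon lengths. Of these genes 53.8% lay within 5% of that median, so the scale is imprecise. Depth was thus estimated at 15500000 to 24500000 fragments.

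Values were transformed as log2(FPKM + 1), and the 11874 genes averaging 1 FPKM or more were fitted over all 4 groups with limma 3.58.1 (R 4.3.3), with moderated variances that follow the mean level (5.47 prior and 4 residual degrees of freedom), 7 comparisons and Benjamini-Hochberg adjustment at 0.05. The script was tested on simulated data. Tables and figures used Python 3.11.15, pandas 2.3.3, numpy 2.4.6 and matplotlib 3.10.9.

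The members and gene lists were chosen with earlier results of these data known. Named genes were the 8 members, up to 4 tested genes per list with the smallest p in each comparison with DMSO, genes of the antigen families under the minimum mean, and the 3 genes most like a member. Genes beside a member were named by position. Some genes that this rule names are not reported here. Upstream sequences and their starts came from RefSeq GRCh38.p14, which matched 5 members. The alternatives tried are given in the closing section.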

Additional observations from a re-analysis of the deposited data

Results flagged for a closer look

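For 4 of the 8 genes the effect of ENZ differed with and without EPZ, by limma's test of the difference itself, while 39.6% of all tested genes passed that test (9.99% higher, 29.6% lower). That reading takes the doses in Combination to be those of the single agents, which the labels do not state. The effect of ENZ in the presence of EPZ minus that in its absence was -2.17 for STEAP4, -0.58 for FOLH1, -0.57 for STEAP2 and -0.25 for STEAP1 on the log2(FPKM + 1) scale. For STEAP4, which reached the minimum mean only through EPZ, the ratio of mean FPKM gave -0.94, resting on 8 ENZ fragments. STEAP1 did not pass after median-of-ratios scaling (-0.11), after quantile normalization (-0.019) or without any 1 of the Combination, EPZ or DMSO libraries, which leaves 3 genes with a negative call. Beside these, the median of all tested genes was -0.12 as deposited and 0.0032 after median-of-ratios scaling.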

How the results depend on the processing

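Alternatives were a pseudocount of 0.1, no minimum mean, a minimum mean of 5 FPKM, median-of-ratios scaling, quantile normalization, fits to the compared groups alone, the replicate number as a block, and each library left out in turn. Over the 8 genes and 7 comparisons, 777 values kept their side of the threshold, 25 lost the call and 17 gained one. For calls lost or gained the cause was not tested. Another 6 changed direction with a call before or after. Values with no call in either fit were counted as kept whatever their direction. With a minimum mean of 5 FPKM STEAP4 was not tested, and 1 gene was lower in ENZ against DMSO and 1 was higher in EPZ against ENZ. In Combination against DMSO 2 genes were lower with no minimum mean, 0 after median-of-ratios scaling, and 0 to 1 with 1 library left out, 0 being without DMSO replicate 2. In Combination against ENZ 1 gene was lower with median-of-ratios scaling and 1 with quantile normalization. The interaction was positive and past the threshold for 1 gene after median-of-ratios scaling, for 3 after quantile normalization, and for 0 to 1 with 1 library left out. Directions changed after quantile normalization: STEAP1 was at 0.14 for EPZ against DMSO, 0.44 for Combination against DMSO, 0.12 for Combination against ENZ and 0.30 for Combination against EPZ, STEAP2 at 0.31 for Combination against ENZ, and ERBB3 at 0.24 for the interaction. The STEAP1 interaction lost its call without any 1 of the Combination, EPZ or DMSO libraries, at -0.27 to -0.23. Of all genes called in the interaction, 25.2% were higher as deposited, 44.3% with median-of-ratios scaling and 49.3% with quantile normalization, and in Combination against ENZ 35.7%, 51.2% and 51.0%.

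With the replicate block the counts of genes higher and lower among the 8 were unchanged in all 7 comparisons, 5 and 1 for Combination against DMSO, and the calls over all genes were 9657 there and 4942 for the interaction. Same-numbered libraries deviated together only weakly, at r = -0.0153 to 0.109 between groups. Whether they were handled together is not in the labels, and a weak r cannot settle it. Precision is limited by 2 libraries a group and, for STEAP4 in ENZ, by 8 fragments.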

Other observations

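Other antigens with targeted agents in solid tumours, mostly surface proteins, were counted as a list of 36 genes, of which 18 were tested. The list holds the kallikrein gene KLK2, which is counted again among the androgen response genes below. KLK2 changed by -1.39 with Combination, 1.99 with EPZ and -3.42 with ENZ. In this list 10 rose and 6 fell with Combination, 12 rose and 3 fell with EPZ, and 9 rose and 5 fell with ENZ, with median log2 changes of 0.33 for Combination, 0.42 for EPZ and 0.21 for ENZ. Over all tested genes 80.8% were called with Combination (33.3% higher, 47.4% lower), 55.8% with EPZ (23.4% higher, 32.4% lower) and 56.7% with ENZ (27.9% higher, 28.8% lower), with medians of -0.15, -0.046 and 0.0049. PTK7, a receptor-like pseudokinase, had 33.5 ± 1.71 FPKM in Combination, 15.5 ± 0.345 FPKM in EPZ, 27.6 ± 2.12 FPKM in ENZ and 10.7 ± 0.0316 FPKM in DMSO (SD, n = 2 each), higher with each treatment. ALCAM, an adhesion molecule, had 58.5 ± 3.38 FPKM in Combination, 33.8 ± 0.801 FPKM in EPZ, 33.3 ± 1.84 FPKM in ENZ and 20.5 ± 0.345 FPKM in DMSO, also higher with each. GPNMB, a glycoprotein, had 9.69 ± 0.891 FPKM in Combination, 4.02 ± 0.217 FPKM in EPZ, 1.04 ± 0.0343 FPKM in ENZ and 0.336 ± 0.0219 FPKM in DMSO, and its rise with Combination was 3 (SE 0.088) on the log2 scale. IGF1R, the insulin-like growth factor receptor, had 3.70 ± 0.0159 FPKM in Combination, 21.4 ± 1.03 FPKM in EPZ, 0.846 ± 0.00883 FPKM in ENZ and 5.21 ± 0.133 FPKM in DMSO, higher with EPZ and lower with Combination and ENZ. FGFR3, a fibroblast growth factor receptor, rose with EPZ (0.90, SE 0.079), fell with ENZ (-0.67, SE 0.079) and did not pass with Combination (0.0011, SE 0.079).

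Of 6 androgen response genes read for reference, 1 rose and 4 fell with Combination, 6 rose and 0 fell with EPZ, and 1 rose and 5 fell with ENZ, beside 80.8% with Combination, 55.8% with EPZ and 56.7% with ENZ called over all tested genes. KLK3, which encodes prostate-specific antigen, had 392 ± 12.2 FPKM in Combination, 2801 ± 1.5 FPKM in EPZ, 224 ± 1.24 FPKM in ENZ and 996 ± 26.3 FPKM in DMSO.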
